A study of Homo sapiens with 2 samples.

Results

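BTK and 8 further genes of the proximal collagen receptor pathway were examined for GATA1 occupancy in megakaryocytic leukemia cells. The 9 genes were FCER1G, LYN, FYN, SYK, LAT, LCP2, VAV1, BTK and PLCG2, of 17280 genes that the promoter arrays name, and their members were the probes whose array annotation gives a distance to one of these symbols. They had 301 probes of the 474411 genomic probes, and all 301 passed the filters. Untreated cells of Meg-01, a human cell line from a megakaryocytic blast crisis of leukemia, were used. Chromatin precipitated with the GATA1 (C-20) antibody was labeled with Cy5 and is called the IP, and chromatin pulled down with normal goat IgG was labeled with Cy3 and is called the IgG. Both were amplified after linker ligation and hybridized together. The promoter set was made of 2 arrays with different probes, chIP1 and chIP2, so each probe was measured in 1 hybridization without a dye swap. No p-value was computed. With no replicates, the spread of the 3 neighboring probes of a window is given, beside a count by the error model of the scanner software. These probes differ in position and were hybridized once, so their spread does not measure the error of the ratio. Precipitated DNA holds no expression, so the identity of the cells could not be checked against marker transcripts.

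Collagen activates platelets through glycoprotein VI, which signals only with its partner, the Fc receptor gamma chain. The Src family kinases LYN and FYN phosphorylate the gamma chain, and the kinase SYK docks on the phosphorylated chain. SYK then acts on the adaptors LAT and SLP-76 (the product of LCP2), which hold the exchange factor VAV1, the Tec family kinase BTK and phospholipase C gamma 2 (PLCG2) together at the membrane. BTK helps to activate the phospholipase, which releases calcium and starts secretion and aggregation. Loss of BTK causes X-linked agammaglobulinemia, and inhibitors of BTK impair platelet responses to collagen. GATA1 is a transcription factor of the erythroid and megakaryocytic lineages that binds DNA at GATA sequences.

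Each value is log2 of the IP over the IgG signal with the median of the array set to 0, and windows are means of 3 adjacent probes. Windows move by 1 probe, so neighboring windows share probes and counts of windows are not counts of separate sites. A window at 1 or above (2-fold toward the IP) is on the IP side, and a window at -1 or below is on the IgG side. Windows on the IP side were found at BTK, SYK, FYN and LCP2, 4 of the 9 genes, and none at FCER1G, LYN, LAT, VAV1 and PLCG2. Over all 17054 genes with a window, 57.1% had one on the IP side. BTK, FYN and LCP2 also had windows on the IgG side, so 3 of 9 had one, against 52.9% of all genes. Of the 266 windows of the 9 genes, 21 (7.89%) were on the IP side, 16 (6.02%) were IgG-side windows, while the background over 415403 windows was 7.62% and 9.65%. IP-side windows thus made up a share near the background, while the other shares were below it, and none of these differences was tested. BTK also belongs to the genes that the study picked with the help of these same arrays, so its IP signal is not independent evidence of binding.

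Promoter sequences are shown for BTK, RPL36A, FYN and PLCG2, and each holds the longer form of GATA described below. They come from RefSeq (GRCh38.p14) and run from 250 bases before the start to 50 bases after it, 5′ to 3′ on the strand of the gene. Capitals mark GATA, or its reverse complement TATC. The BTK promoter is at chrX:101386142-101386441 (minus strand), the RPL36A promoter at chrX:101390761-101391060 (plus strand), the FYN promoter at chr6:111873403-111873702 (minus strand) and the PLCG2 promoter at chr16:81738791-81739090 (plus strand). RPL36A encodes a ribosomal protein and lies upstream of BTK in the opposite orientation, and it is shown because the highest window of BTK overlaps it.
BTK: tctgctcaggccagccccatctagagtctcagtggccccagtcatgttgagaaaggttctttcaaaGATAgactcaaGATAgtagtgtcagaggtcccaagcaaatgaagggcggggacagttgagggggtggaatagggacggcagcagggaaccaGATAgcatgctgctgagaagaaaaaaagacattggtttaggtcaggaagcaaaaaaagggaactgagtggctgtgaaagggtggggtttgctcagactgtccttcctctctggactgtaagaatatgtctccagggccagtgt
RPL36A: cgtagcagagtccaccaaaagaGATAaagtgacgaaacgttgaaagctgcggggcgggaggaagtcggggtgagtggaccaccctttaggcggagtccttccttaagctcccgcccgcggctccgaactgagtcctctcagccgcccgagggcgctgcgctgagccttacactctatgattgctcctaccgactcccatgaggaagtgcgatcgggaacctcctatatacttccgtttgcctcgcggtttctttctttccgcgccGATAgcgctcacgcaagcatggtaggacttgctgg
FYN: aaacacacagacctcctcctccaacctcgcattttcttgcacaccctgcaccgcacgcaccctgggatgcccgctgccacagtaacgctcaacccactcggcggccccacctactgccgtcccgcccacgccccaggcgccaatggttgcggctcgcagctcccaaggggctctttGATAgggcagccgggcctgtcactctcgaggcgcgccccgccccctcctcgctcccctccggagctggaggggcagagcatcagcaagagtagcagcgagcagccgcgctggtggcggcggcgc
PLCG2: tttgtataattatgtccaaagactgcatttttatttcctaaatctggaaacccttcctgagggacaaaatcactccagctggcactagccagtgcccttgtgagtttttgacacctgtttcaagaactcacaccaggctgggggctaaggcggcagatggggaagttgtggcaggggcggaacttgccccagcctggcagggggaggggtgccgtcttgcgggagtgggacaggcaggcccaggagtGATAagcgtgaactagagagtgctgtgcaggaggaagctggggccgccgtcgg

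Of 34943 RefSeq promoters of this length, 49.8% held GATA on either strand and 25% held a longer form that contains it, which is AGATAA or AGATAG, or else TGATAA and its variant TGATAG, or a reverse complement of one of them. The table held 15 promoters for 8 of the 9 genes, of which 7 had the short word and 5 the longer form. The BTK promoter held 3 copies of the longer form, all AGATAG, with the GATA of each beginning at positions -184, -173 and -93 from the start. The FYN promoter held 1, TGATAG, with GATA at -74, and the PLCG2 promoter held TGATAA with GATA at -3, next to the start. The promoters of LCP2, VAV1 and FCER1G held neither form within these windows. No SYK or LAT promoter held the longer form, and GATA stood at -215 in SYK and at -193 in LAT. The printed promoters therefore do not stand for all 9 genes. In RPL36A, AGATAA was present with GATA at -228, and a second GATA stood at 16. Matching letters are a description of the sequence and do not show a bound site.

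The build of the array coordinates is not given in the sources used here, and array positions were therefore not converted. Array and RefSeq starts were matched by spacing. The BTK and RPL36A starts lay 4765 bases apart on the array and 4820 in RefSeq for the BTK start printed above. RefSeq also lists a distal BTK start 4605 bases upstream, whose promoter shares 286 bases with that of RPL36A on the opposite strand and whose start lies 215 bases from the RPL36A start. For FYN, the printed promoter gave a spacing of 114371 bases to another FYN start, against 114342 between the NM_002037 and NM_153048 starts on the array, the nearest of the pairs compared. PLCG2 has 1 start in either source, so its match could not be checked in this way.

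**Figure D1:**
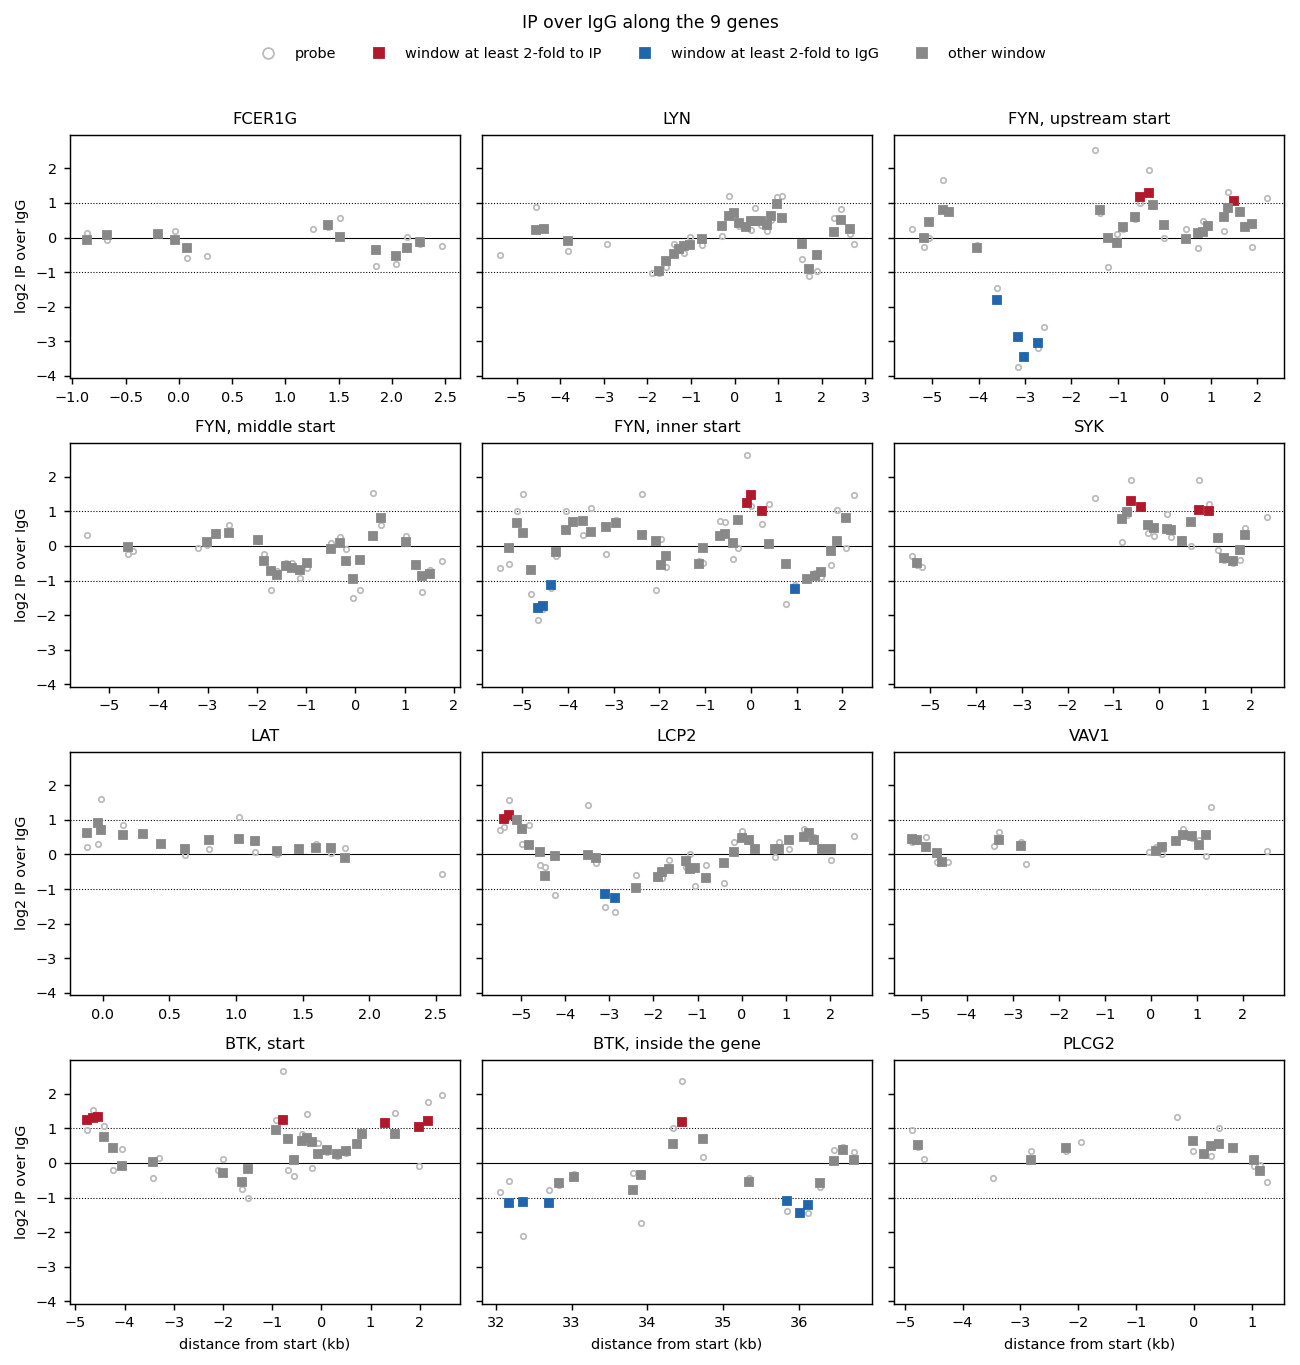
log2 IP over IgG of each probe (open circles) and each 3-probe window (squares, at the center probe) against distance from the annotated start in kb, with dotted lines at 1 and -1. FYN is drawn for its 3 annotated starts and BTK for its start and its inner probes, and windows centered on a probe of a neighboring gene are left out; red windows appear in FYN, SYK, LCP2 and BTK, and the deepest blue windows lie upstream of FYN.

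FCER1G, the Fc receptor gamma chain, had the lowest maximum of the 9 genes. Its 14 probes on chromosome 1 gave 12 windows between -0.52 and 0.37, with none on either side. The window nearest the start, centered at -34, had probes at 0.14, 0.20 and -0.58 and a mean of -0.08. Its highest window, 1397 bp inside the gene, had probes of 0.26, 0.30 and 0.56, and its highest value exceeded that of 5.69% of the genes of the array. Its probes were bright, with the median probe at the 87.4 percentile of brightness on the array.

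LYN, a Src family kinase, came closest to 2-fold without reaching it. Across the start, 7 windows within 500 bp were all positive, from 0.30 to 0.72. The highest of its 28 windows, at 966 bp inside the gene, had probes of 0.52, 1.18 and 1.19 and a mean of 0.96. Its IP signals there were 6047, 3513 and 5267, against IgG signals of 4226, 1557 and 2314. At -1733 the profile was negative, short of the IgG side, with probes of -1.02, -1.02 and -0.85 and a mean of -0.96. The positive stretch around the start was therefore flanked by negative windows upstream and, at 1698 bp, downstream, where the mean was -0.90.

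FYN, the second Src family kinase, had the widest range of the 9 genes. Its 97 probes on chromosome 6 cover 3 annotated starts, here called the upstream (NM_002037), middle (NM_153048) and inner (NM_153047) start, and gave 87 windows from -3.44 to 1.48. The IP side had 6 of them and the IgG side 8. The middle start had none of either kind, and its 23 windows ran from -0.96 to 0.82 with a median of -0.44.

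At the inner FYN start, the highest window of the 9 genes was centered 12 bp inside the transcript (chr6:112147702-112148074 on the array). Its probes were 0.63, 1.17 and 2.63, with a mean of 1.48 and an SD over the 3 probes of 1.04. The IP signals were 620, 1722 and 1738 and the IgG signals 402, 767 and 281. The probe at 2.63 thus carried much of the mean, and the next probe outward was at -0.05. With normexp this window was at 1.02, below the 1.24 of the window at -342 of the upstream start. No RefSeq promoter in the table matched this start.

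At the upstream FYN start, whose promoter is printed above, windows centered at -342 and -525 had means of 1.28 and 1.16. The probes of the first were 0.90, 1.94 and 1.00, with IP signals of 14364, 2217 and 2523 against 7693, 579 and 1267. All 3 probes were therefore positive, including a bright one. Over the printed promoter, whose GATA stands at -74, the 2 probes were at 0.90 (at -241) and -0.03 (at -19), and the window centered at -19 had a mean of 0.37. A single window at 1487 bp had a mean of 1.05.

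Further upstream of this FYN start lay the lowest window of the 9 genes. From -2724 to -3607, 4 windows in 1492 bp (chr6:112303884-112305375) were on the IgG side, and the lowest, at -3012, had probes of -3.18, -3.39 and -3.74 and a mean of -3.44. The IP signals of these probes were 273, 26.3 and 18.2 and the IgG signals 2481, 277 and 244. Their raw IP signals of 405, 350 and 346 stood close to the negative control median of 342, and raw IgG signals of 598, 336 and 333 stood above the control median of 303. The scanner software nevertheless marked all 3 as well above background in both channels. With background correction of the raw signals by normexp the same 3 probes had a mean of -1.52. The lowest FYN window was then the one at -2724, at -1.79. The size of the ratio is therefore uncertain, and the part of low signal in it was not tested.

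SYK, the kinase that docks on the gamma chain, had its IP windows on either side of its start, and none over it. Of its 18 windows, 4 were on the IP side and none on the IgG side. The highest, at -614 (chr9:90642884-90643240), had probes of 0.89, 1.91 and 1.14 and a mean of 1.31 with an SD of 0.53. The second pair, at 874 and 1083 bp, had means of 1.04 and 1.01. Between them the window nearest the start, at -118, was at 0.53, and the 6 windows within 500 bp of the start were all positive.

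The SYK windows on the IP side were dim. At -614 the raw IP signals were 466, 608 and 422, against a negative control median of 342, and the raw IgG signals were 338, 341 and 326, against 303. The window stood at the 21.9 percentile of brightness. With normexp the highest window of SYK was at 0.66, and SYK then had no window on the IP side. The 2 bright probes at -245 and -118, with IP signals of 3640 and 1377, were at 0.37 and 0.30.

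LAT, the membrane adaptor phosphorylated by SYK, was positive along nearly its whole profile without reaching 2-fold. Of 16 windows, 15 were above 0, and the highest, centered at -37, had probes of 1.59, 0.29 and 0.86 and a mean of 0.92. The IP signals were 1548, 2039 and 2102 and the IgG signals 511, 1655 and 1151, so the first probe differed most. Annotated probes began 115 bp before the start, because those further upstream belong to the neighboring gene SPNS1. The 6 windows within 500 bp of a LAT start were between 0.30 and 0.92.

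LCP2, which encodes SLP-76, had both kinds of windows in its upstream region and neither near its start. Its window nearest the start, at -7, had a mean of 0.48. At -2876 probes of -0.58, -1.67 and -1.52 gave -1.26, and at -5262 probes of 1.06, 1.58 and 0.80 gave 1.15. The IP signals of the latter were 1780, 6260 and 1200 against 853, 2093 and 691 (chr5:169662465-169662797), and no other gene was annotated there. With 5-probe windows the highest LCP2 value was 0.92. LCP2 lies at the edge of its tiled region there, at -5476 from the start, so the profile was not seen further out.

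VAV1, the exchange factor for Rac, stayed within a narrow band. Its 15 windows ran from -0.22 to 0.58 with a median of 0.29. The highest, at 1198 bp, rested on 1 probe of 1.36, next to probes of 0.40 and -0.03. Windows at the start were at 0.11 and 0.23. The lowest window lay at -4537, in the promoter that VAV1 shares with the divergent gene SH2D3A, with probes of -0.22, -0.20 and -0.23.

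BTK had the most windows on the IP side of the 9 genes, 9 of 47, and 6 on the IgG side. The 9 fell in 4 places. The strongest lay at the far upstream end, where 4 overlapping windows in a row covered 887 bp (chrX:100451719-100452605) with means of 1.33, 1.29, 1.25 and 1.24. Neighboring windows share probes, so these means are not independent. This stretch is annotated as a divergent promoter. Its first window was centered at -4549 from the array start of BTK and at -216 from that of RPL36A. By this array distance the center lies in the RPL36A promoter printed above. The 55 bases by which the spacing of the starts differed between array and RefSeq could place it outside. The last window of the stretch reached past the RPL36A start. Some of these probes also carry the accession of GLA, the gene of alpha-galactosidase A.

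The probes of this stretch were also even. The probes of the first window were 1.08, 1.38 and 1.52, with an SD of 0.22, against a median SD of 0.49 over all windows. Their IP signals were 2018, 3537 and 3741 and their IgG signals 951, 1348 and 1300. Raw IP signals of 912, 1201 and 1219 stood well above the negative control median of 340 on this array, and the window was at the 78.1 percentile of brightness. Across the 8 alternatives that change a window value, the highest BTK value was between 1.30 and 1.36 with the exception of single probes, where it was 2.65 and came from another place. With normexp the 4 windows of this stretch were between 1.28 and 1.36, and the other 5 BTK windows on the IP side were all below 1. The first 2 windows hold only probes annotated to both BTK and RPL36A. The third has 2 such probes and the last 1, and their remaining probes are annotated to RPL36A without BTK, so the signal cannot be assigned to BTK.

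At the BTK start itself, the windows were positive and under 2-fold. The 6 windows within 500 bp had means from 0.25 to 0.71. The window at -62 had probes of 0.32, 0.57 and -0.14 and a mean of 0.25, and the one at -181 had probes of 0.57, -0.14 and 1.42 and a mean of 0.61. These cover the 3 AGATAG words of the printed BTK promoter, within the 55 bases by which the spacing of the starts differed between array and RefSeq. The 3 copies of the motif thus lay under windows below 2-fold.

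The other BTK windows on the IP side were less even. At -770 a single window had probes of -0.21, 2.65 and 1.25 and a mean of 1.23, where the probe at 2.65 had an IP signal of 814 against 129. Within the gene, windows at 1290, 1981 and 2161 bp had means of 1.14, 1.04 and 1.21, the first from probes of 1.45, 1.19 and 0.80. A last window, 34460 bp from the start, rested mainly on 1 probe of 2.38. Near it, windows on the IgG side were found from 32170 to 32709 bp and from 35848 to 36126 bp, and the lowest of them had probes of -1.46, -1.48 and -1.39 and a mean of -1.44. With normexp the lowest BTK window was at -0.95.

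PLCG2, the phospholipase at the end of the cascade, had a positive start below 2-fold. Its highest window, at -11, had probes of 1.32, 0.33 and 0.24 and a mean of 0.63. The probe at 1.32 had an IP signal of 640 against 254, and the brighter probes beside it, at 1604 and 1740 against 1266 and 1462, were near 0.3 and 0.2. Its probes lie from -290 to 180 of the array start, and TGATAA stands next to the RefSeq start, but the match of these starts was not checked. All 4 windows within 500 bp of the start were positive, from 0.26 to 0.63, and the lowest of its 10 windows was at -0.23.

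**Figure D2:**
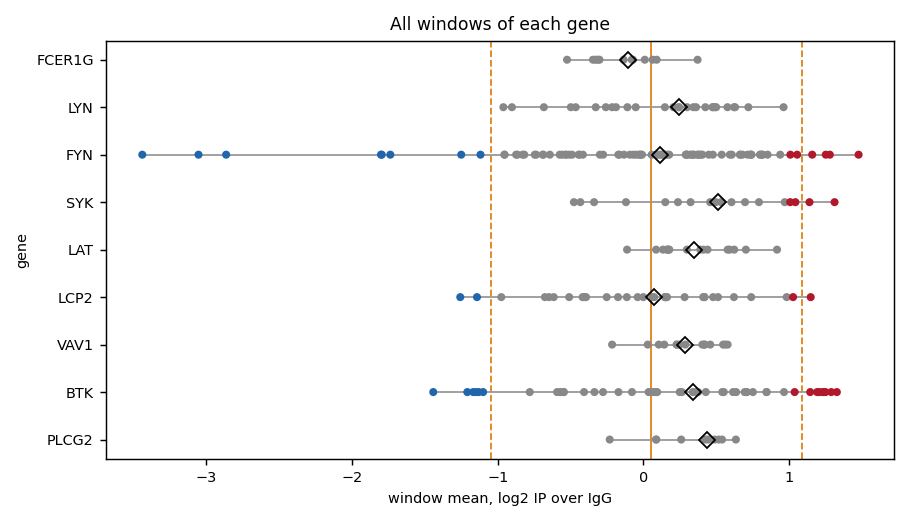
Every 3-probe window of the 9 genes as log2 IP over IgG, in red at 1 or above, in blue at -1 or below and in grey otherwise, with an open diamond at the median of each gene. Orange lines give the medians over all genes of the lowest (-1.05), the median (0.05) and the highest (1.09) window; 4 genes pass the line on the right, and FYN reaches -3.44 on the left.

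Compared with all genes, the 9 genes did not have high peaks in the main setting. Their median highest window was 0.96, against 1.09 over all genes, and 4 of 9 were above that value. With normexp the order was reversed, at 0.96 for the 9 genes and 0.83 over all genes. In the main setting, the highest windows of the 9 genes ranked from the 5.69 percentile of their array (FCER1G) to the 72.7 percentile (FYN). BTK was at 68.2 and SYK at 63.0. The genes nearest the threshold were LCP2 at 1.15 inside it and LYN at 0.96 outside it. Their median lowest window was -0.52, against -1.05. The middle of the profile stood higher, since the median window of a gene had a median of 0.29 over the 9 genes and 0.05 over all genes, and 8 of 9 were above 0.05, with FCER1G at -0.11 as the exception. When the trend of the ratio on distance from the start was removed, these medians were 0.16 and 0.02, and 8 of 9 genes were above. No test was made of this shift, and 6 to 8 genes were above under the alternatives.

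The number of windows moved with the calls. FYN and BTK, with 87 and 47 windows, both had windows of both kinds, and among all genes with 40 or more windows 82.9% had an IP-side window and 76.3% an IgG-side one. Of the 5 genes with 10 to 19 windows, only SYK had one on the IP side and none had one on the IgG side, against 45.7% and 38.3% of all such genes. LYN and LCP2 lay between, in the class of 20 to 39 windows, where these shares were 62.9% and 61.8%.

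Position along the gene was compared next. Windows of the 9 genes were placed by distance to their own gene, and all windows by the nearest start of any gene. The shares are therefore not directly comparable. Within 500 bp of a start, 5 of the 55 windows of the 9 genes were on the IP side and none on the IgG side, where the background over all genes was 10.4% and 4.13%. The 5 belonged to FYN and SYK. The median window there was 0.42 for the 9 genes and 0.26 for all genes. Farther than 2000 bp upstream, 5 of 63 windows (7.94%) were IP-side (BTK and LCP2) and 9 (14.3%) were IgG-side (FYN and LCP2). The shares of all windows were 6.57% and 14.8%. The BTK windows among them, centered at -4549, -4650 and -4755, lay at -216, -115 and -10 from the RPL36A start. By the nearest start they would count as within 500 bp.

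Brightness also moved with the calls. The windows of the 9 genes on the IP side had a median brightness at the 45.4 percentile and those on the IgG side at the 34.5 percentile, against 62.7 for the other windows. Over all genes the same order was seen, with medians at 42.4, 31.0 and 54.6. The FYN windows around -3012 and the SYK windows were among the dim ones, while the BTK windows at RPL36A were among the bright ones. The part of brightness in the calls was not tested.

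**Figure D3:**
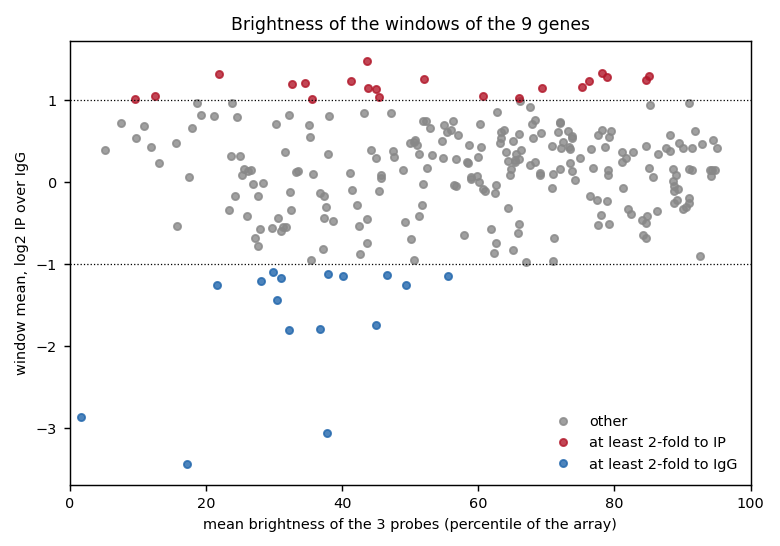
Mean of each 3-probe window of the 9 genes (log2 IP over IgG) against the mean brightness of its probes, as a percentile of the probes of its array. Red and blue points are windows past 2-fold, with median percentiles of 45.4 and 34.5, and grey points are the others, with a median of 62.7; most points past 2-fold lie in the left and middle of the plot.

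How many genes were counted depended on the rule. With a threshold of 1.5-fold, 7 of 9 had an IP-side window and 4 an IgG-side one, against 85.0% and 78.4% of all genes. With 3-fold, none and 1 (FYN) did, against 20.6% and 22.3%. A rule on the p-value of the scanner software for each probe counted 8 and 5, against 85.1% and 79.8%. FCER1G had no window on the IP side under any of these rules. With normexp 4 of 9 had an IP-side window, against 33.1% of all genes, a share that was 57.1% in the main setting. The count of 4 thus stayed while the background fell, and this difference was not tested. LYN, at 1.06, was new among the 4 and SYK was lost.

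**Figure D4:**
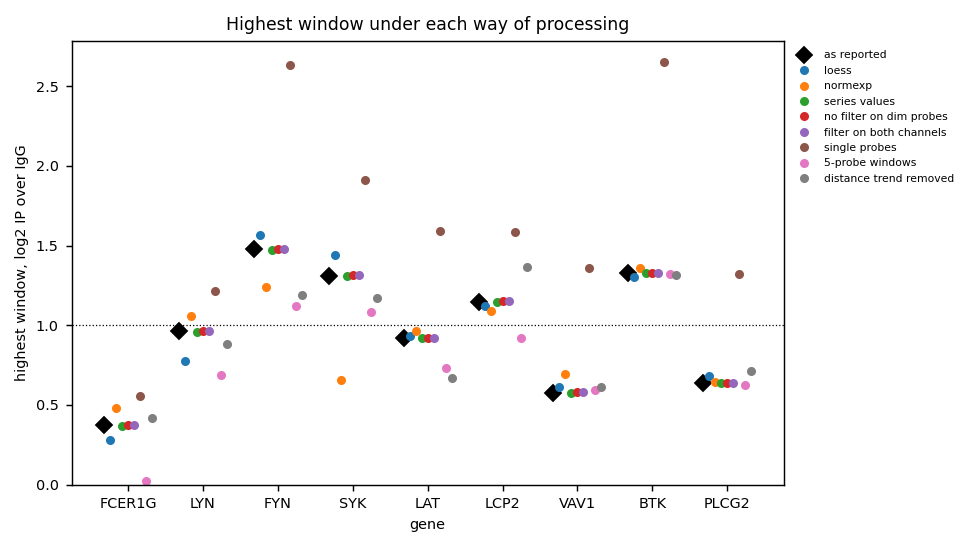
Highest window of each of the 9 genes (log2 IP over IgG) as reported (black diamonds) and under each alternative that changes the values, with a dotted line at 1. The BTK values lie together near 1.33 apart from the single-probe value of 2.65, and the SYK value falls to 0.66 with normexp.

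Other genes of collagen receptor signaling were taken from a list of 63 receptors, kinases, adaptors, effectors and inhibitors, of which 62 were on the arrays with windows. Of these, 36 (58.1%) had an IP-side window and 31 (50%) an IgG-side one, near the background of 57.1% and 52.9%. Their median highest window was 1.05. By role, 9 of 10 inhibitors, 7 of 10 adaptors, 7 of 15 effectors, 3 of 6 Src family kinases and 2 of 5 receptors had a window on the IP side.

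The highest value was that of BMX, another Tec family kinase, also on chromosome X. Its window at -1128 from its start had probes of 3.31, 3.31 and 1.87 and a mean of 2.83. That window is annotated as a divergent promoter, so it cannot be assigned to BMX alone. CLEC1B, the receptor for podoplanin, which signals through SYK, followed with 2.00 at -208. RAC2, a small GTPase downstream of VAV1, was at 1.85, the docking protein GAB2 at 1.65 and the ubiquitin ligase CBL at 1.63. All of these genes reached the opposite side as well. Of 23 CLEC1B windows, 9 were IgG-side and 3 IP-side, and the lowest was at -2.20. For RAC2 the counts were 3 and 3 of 17, with a lowest window of -1.82. In the same order they were 3 and 2 for CBL, 2 and 2 for GAB2, and 6 and 10 for BMX. A high maximum thus does not describe the whole profile of these genes. At the low end, the Tec family kinase TXK had no window above -0.18, the protein kinase C isoform PRKCA had a highest window of 0.23, and the phosphoinositide kinase PIK3CG of 0.43. GP6, the collagen receptor itself, had 1 of 9 windows on the IP side, at 1.15, which lay at -3533 from the start. The gene of the integrin subunit ITGA2, which also binds collagen, had a highest window of 0.44 and 7 of 28 windows on the IgG side.

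The highest windows annotated to Tec family kinases differed widely. Set beside BTK at 1.33, they were 2.83 for BMX, 1.59 for TEC and -0.18 for TXK. Those of BMX and TEC were past 3-fold, TEC by a small margin. The TEC window (chr4:47980558-47980874) lay 132040 bp from the TEC start. It was close to the highest TXK window (chr4:47976909-47977316), which was centered 118 bp inside TXK. The TEC value therefore does not describe the TEC start, and its assignment to TEC rather than TXK was not tested. Without replicates, none of these differences between genes was tested.

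**Figure D5:**
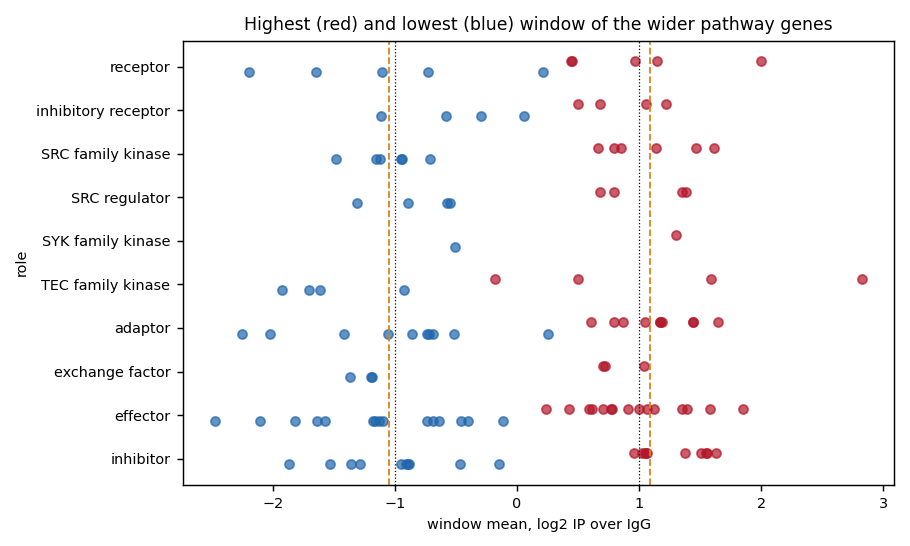
Highest (red) and lowest (blue) 3-probe window of the 62 further pathway genes by role, as log2 IP over IgG, with dotted lines at 1 and -1 and dashed orange lines at the medians over all genes (1.09 and -1.05). The highest point is BMX at 2.83 among the Tec family kinases, and the points of most roles spread over both sides of the lines.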

How the data were processed

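The authors deposited the scanner output of both arrays. Agilent Feature Extraction 9.5.3.1 had produced the intensities per the file headers, and the deposited processed intensities were spatially detrended and dye-normalized. The deposited log10 ratios (Cy5 over Cy3) and the deposited p-value of each ratio come from the same software, and the series table holds the same log10 values. The study's own peak calling was not repeated. Here, log2 of processed IP over IgG intensity was centered on the array median. Spots that were controls or non-uniform were dropped, as were probes that neither channel showed well above background. Windows held 3 adjacent probes within 1000 bp of the center probe and counted for every gene annotated to one of them. The members and lists were chosen with earlier results of these data known. The named genes were all members, and the 5 further pathway genes with the highest and the 3 with the lowest highest window, with GP6, ITGA2 and TEC named after their values were seen. Distances and gene names are those of the array, whose genome build is not given in the sources used here. Promoter sequences are from RefSeq (GRCh38.p14). Alternatives were loess, normexp with an offset of 50, the series table, other dim-probe filters, single probes, 5-probe windows, other thresholds, a rule on the scanner p-value (0.001 for the center, 0.1 for a neighbor) and removal of the distance trend. The normexp values came from raw signals and local background, without the spatial detrending and dye normalization of the processed intensities. The window code was checked on simulated data with less noise than these arrays, which does not measure the error of the calls. R 4.3.3 with limma 3.58.1 and Python 3.11.15 were used.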

Additional observations from a re-analysis of the deposited data

How the results depend on the processing

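No paired analysis was possible because the arrays share no probes and each was hybridized once. Loess, the series table, both filters on dim probes and removal of the distance trend kept every count within 1.5 times its reported value. Members with a window on the IP side (4 of 9) were 8 with single probes, 7 at 1.5-fold, 0 at 3-fold, 0 at 4 robust SDs and 8 with the scanner error model. Members with one on the IgG side (3) were 1 with normexp, 1 at 3-fold, 1 at 4 robust SDs and 5 with the error model. Member windows on the IP side (21) were 9 with normexp, 45 of 301 single probes, 8 of 230 5-probe windows, 61 at 1.5-fold, 0 at 3-fold, 0 at 4 robust SDs and 47 with the error model. Those on the IgG side (16) were 5, 28, 7, 36, 6, 3 and 34 in the same order. The shares of all windows in this order were 3.25%, 11.8%, 5.12%, 19.3%, 1.79%, 0.0852% and 15.0% on the IP side. On the IgG side they were 2.50%, 14.4%, 7.02%, 21.0%, 2.74%, 0.172% and 17.4%. The median highest window of the members (0.96) was 1.58 with single probes, against 1.73 over all genes. With normexp it was 0.96, above the 0.83 of all genes. Further pathway genes on the IP side (36 of 62) were 20 with normexp, 55 with single probes, 14 with 5-probe windows, 55 at 1.5-fold, 7 at 3-fold, 1 at 4 robust SDs and 55 with the error model, and on the IgG side (31) 13 with normexp, 51 with single probes, 48 at 1.5-fold, 12 at 3-fold, 0 at 4 robust SDs and 48 with the error model. The share of all genes on the IP side moved with these counts. It was 33.1% with normexp, 86.1% with single probes, 33.6% with 5-probe windows and 85.0% at 1.5-fold. It was 20.6% at 3-fold, 1.51% at 4 robust SDs and 85.1% with the error model. On the IgG side the shares in this order were 23.9%, 81.1%, 32.5%, 78.4%, 22.3%, 2.11% and 79.8%. The cause was not tested. Of 144 highest and lowest values of single members under 8 alternatives, 133 stayed on their side of 2-fold and none changed sign among those past it. With normexp, which lowers the weight of dim spots and also leaves out the dye normalization, the highest SYK window was 0.66. The lowest windows of BTK and LCP2 were then -0.95 and -0.84. The median of the median windows, added after seeing the data, stayed above that of all genes under each of these alternatives, from 0.16 to 0.32. One hybridization per probe, low signals and windows shared with RPL36A limit every value.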
